A study of Mus musculus with 4 samples.

Results

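YAP binding was examined at 8 genes that fasten the basal layer of the epidermis to the dermis: the laminin chain genes Lama3, Lamb3, Lama5 and Lamc1, the hemidesmosome genes Col17a1, Dst and Plec, and the anchoring fibril gene Col7a1. A YAP site was assigned to one of these genes when the summit of its peak, the point of highest signal, lay inside the gene span, or within 100 kb of it and nearer to it than to any other protein-coding gene. This rule gave 56 of 36576 peaks in the list labelled Bmal1 WT and 34 of 14879 peaks in the list labelled Bmal1 KO. The 8 genes were chosen by function, but with earlier results of these data known. The whole was 21627 protein-coding gene symbols on chromosomes 1 to 19 and X.

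Chromatin immunoprecipitation and sequencing (ChIP-seq) with an anti-YAP antibody had been done on epidermal cells of adult mice aged 18 to 25 weeks. Mice were killed at Zeitgeber time 4 (ZT4), that is 4 h after lights on. The labels describe one group as Bmal1 WT and the other as Bmal1 KO, with Bmal1cKO in the protocol; neither the Cre driver nor the cells with the deletion are stated. Each genotype had 1 ChIP sample with 1 peak list and 1 input, and peak names carry the word pooled without saying what was pooled. With 1 list per genotype no value has a replicate error, no test of genotype was possible, and every interval below covers counting error only.

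YAP is a co-activator of the Hippo pathway that does not bind DNA itself and is carried to it mainly by TEAD factors, often at enhancers that also bind AP-1. BMAL1 is an activator of the circadian clock. In skin, hemidesmosomes link the keratin filaments of basal keratinocytes to the basement membrane. Inside the cell the plakins plectin (Plec) and BPAG1e (a product of Dst) hold the keratins, in the membrane collagen XVII (Col17a1) and integrin α6β4 span to the outside, and outside the cell a laminin with α3 and β3 chains (Lama3 and Lamb3) is anchored to the dermis by loops of collagen VII (Col7a1). A second laminin, of α5, β1 or β2 and γ1 chains (Lama5 and Lamc1 encode the first and last), lies in the same membrane.

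Promoter sequence was available for 5 of the 8 genes, and peaks lay over 4 of their 7 listed promoters, at 3 genes. One for each of these genes, Dst, Lamb3 and Col17a1, is shown because YAP peaks of both genotypes covered it. The share of all listed promoters covered by a peak was not counted, so 4 of 7 has no background beside it. Of the 2 covered Lamb3 promoters, the one shown is that with a TEAD motif match; the other has none and lies closer to the summit. Each run is the 250 bases before a transcription start, 5′ to 3′ on the strand of the gene, from RefSeq on GRCm38.p6 (mm10), with positions counted from 1 at the left. The Dst run, chr1:34160010-34160259, plus strand, precedes the internal start, as the later of the listed Dst starts is called here. Its capitals mark 11 bases around the KO summit (position 107) and 11 around the WT summit (position 164), 87 bp before the start.
Dst internal promoter: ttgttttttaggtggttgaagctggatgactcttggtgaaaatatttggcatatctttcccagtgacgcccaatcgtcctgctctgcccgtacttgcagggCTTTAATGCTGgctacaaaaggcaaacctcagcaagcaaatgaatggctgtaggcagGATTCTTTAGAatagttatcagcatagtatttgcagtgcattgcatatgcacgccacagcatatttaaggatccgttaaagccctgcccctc
The Lamb3 run, chr1:193301993-193302242, plus strand, precedes the second of 2 neighbouring starts, and its capitals, positions 84 to 89, mark the reverse complement of GGAATG, the core of the TEAD motif. The WT summit lay outside this run, 826 bp before that start and 577 bp before the first one.
Lamb3 second promoter: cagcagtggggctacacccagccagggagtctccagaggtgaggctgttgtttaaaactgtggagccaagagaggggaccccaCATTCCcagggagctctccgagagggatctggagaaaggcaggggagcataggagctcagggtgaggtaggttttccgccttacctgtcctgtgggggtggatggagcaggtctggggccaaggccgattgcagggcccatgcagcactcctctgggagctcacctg
The Col17a1 run, chr19:47692043-47692292, minus strand, has 11 bases around the KO summit (position 206) in capitals, while the WT summit lay 39 bp after the start.
Col17a1 promoter: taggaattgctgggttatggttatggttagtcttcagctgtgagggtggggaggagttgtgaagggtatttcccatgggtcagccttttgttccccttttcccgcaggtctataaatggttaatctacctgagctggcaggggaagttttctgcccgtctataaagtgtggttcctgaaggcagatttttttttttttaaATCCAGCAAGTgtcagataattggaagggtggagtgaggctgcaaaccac
Of the 7 promoters, 1 held GGAATG on either strand, against 12.6% of 32851 promoters of 250 bp in the table. None held the AP-1 motif TGANTCA (6.75% of all) or the E-box CACGTG bound by clock activators (6.02% of all), both searched on both strands. These are matches of letters in this window and say nothing of the factors. Lama3, Lamc1 and Plec had no entry.

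To set the lists side by side, the whole number of ChIP reads at each summit was recovered from the deposited fold and p. The background of evenly spread reads, 1 value for each whole list, was 9.63 reads per fragment length in both. Read numbers of the lists were therefore compared without further scaling. Local background at a summit could be higher, as at the Plec peak from 76192601, with 21.6 WT reads. The fragment length and depth of each list are not known. Equal background does not make the pull-down of the 2 ChIP samples equal, and a difference in it was not tested. All WT peaks had a median of 61 reads (range 28 to 290) and all KO peaks a median of 52 (29 to 223). Marker genes of skin cell types were also looked up. A linked WT peak was found for 8 of 8 keratinocyte genes, 1 of 6 for fibroblasts and 5 of 6 for melanocytes. It was found for 1 of 6 for Langerhans cells, 3 of 5 for T cells and 2 of 6 for endothelium. The T cell list as planned was longer than the 5 genes counted. Over all protein-coding genes the share was 53.2%. A linked peak is not a measure of expression, so these counts cannot check the label epidermis. The part of other cells in the results was not tested.

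Of the 8 genes, 7 carried YAP sites in both lists, and Col7a1 had none in either. Over all protein-coding genes, 53.2% had a linked WT peak and 30.1% a linked KO peak. The members' spans are longer, with a median of 55.0 kb against 17.3 kb for all genes and 26.3 kb for genes with a linked WT peak, and the part of span length in these shares was not tested. The 56 WT sites had a median of 71 reads, and 17 of them (30.4%) had at least 100, against 16.7% of all WT peaks. A WT site counted as kept where its peak shared at least 1 bp with a KO peak, and as WT-only where it did not. Of the 56, 30 were kept (53.6%, exact 95% Clopper-Pearson interval 39.7 to 67.0), against 39.1% of all WT peaks. The interval takes the sites as independent, though 40 of them had another WT summit within 10 kb, and its lower bound is just above the background. Without Plec, the gene with most sites, 22 of 45 were kept (48.9%, 33.7 to 64.2), an interval that includes the background. With the kept share of all WT peaks in the same bin of reads, 29.0 of the 56 would be kept, close to the count of 30.

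**Figure D1:**
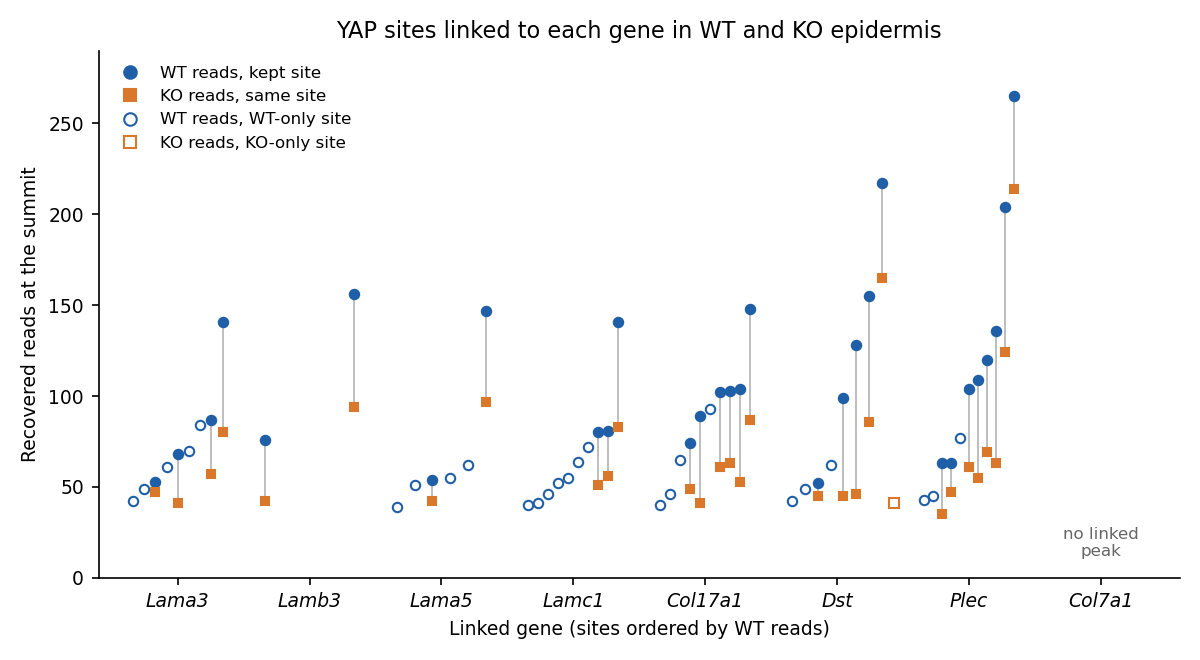
Recovered reads at the summit (vertical axis) of every site linked to the 8 genes (horizontal axis), with lines joining WT and KO values of kept sites and open symbols for sites called in 1 list only. KO values lie below WT values at all 30 kept sites, open WT circles lie between 39 and 93 reads, and Col7a1 has no site. In the whole list KO also held fewer reads at 6030 of 6031 kept sites with at least 100 WT reads. That count was not made for weaker kept sites of the whole list. A limit on WT reads alone favours lower KO values.

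Kept and WT-only sites at these genes differed in median strength but were not separated by it. Kept sites had 52 to 265 WT reads (median 104) and WT-only sites 39 to 93 (median 51.5), so the ranges overlap between 52 and 93. All 17 sites with at least 100 reads were kept, as were 98.6% of such peaks in the whole list. Of 12 sites with fewer than 50 reads none was kept, against 1.27% of all WT peaks below 40 reads and 3.82% from 40 to 49. From 50 to 59 reads 3 of 7 were kept (13.4% of all), and from 60 to 69 reads 3 of 8 (31.8% of all). From 70 to 79 reads 2 of 5 were kept (54.9% of all), from 80 to 89 reads 4 of 5 (74.7%) and from 90 to 99 reads 1 of 2 (88.7%). A WT-only site is one where no KO peak was called; its KO reads are not known from the lists, and the lowest called KO summit held 29 reads.

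**Figure D2:**
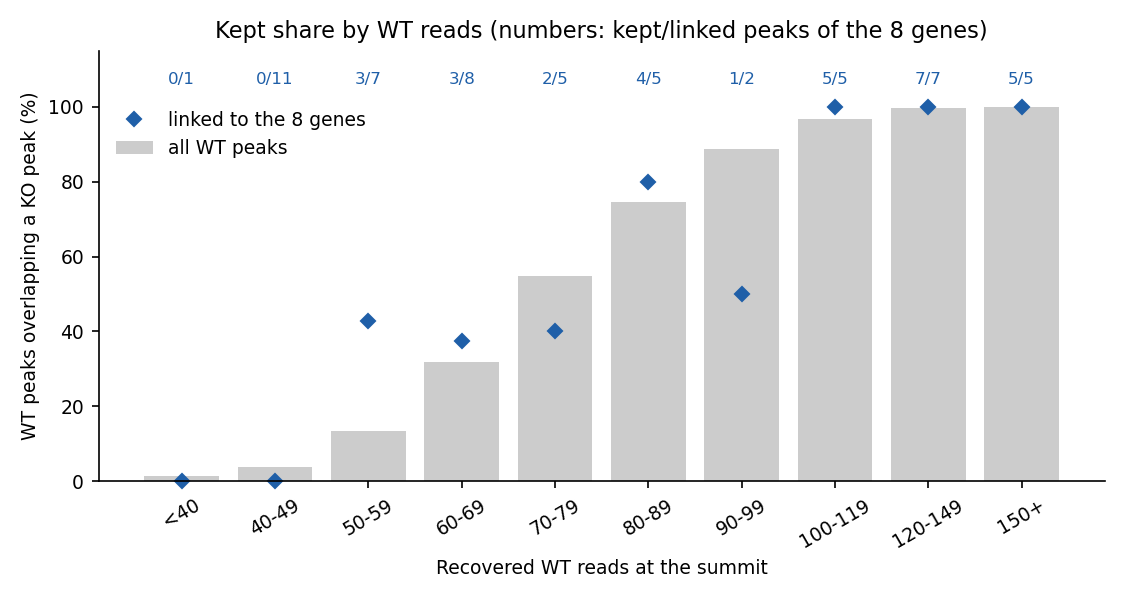
Percentage of WT peaks that overlap a KO peak (vertical axis) by bin of WT summit reads (horizontal axis), as bars for all WT peaks and diamonds for those linked to the 8 genes, with kept and linked numbers above. The diamonds lie above the bars from 50 to 69 and from 80 to 89 reads, below them from 70 to 79 (2 of 5) and from 90 to 99 (1 of 2), and reach 5 of 5 at 150 reads or more; bins hold 1 to 11 of these sites.

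The 27 WT sites of the 4 laminin chain genes had a median of 62 reads (39 to 156), and 4 reached 100 reads. The 29 WT sites of Col17a1, Dst and Plec had a median of 93 (40 to 265), and 13 reached 100. The order did not hold gene by gene, since the 2 Lamb3 sites, with 76 and 156 reads, had a higher median than Plec, Col17a1 or Dst. Kept were 11 of 27 laminin sites (40.7%, 22.4 to 61.2) and 19 of 29 hemidesmosome sites (65.5%, 45.7 to 82.1). These intervals overlap, and from the reads alone 10.9 and 18.1 would be kept.

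Lama3 encodes the α3 chain, which binds integrins α6β4 and α3β1 of basal cells. Its span on chromosome 18, from 12333417 to 12583013, held 8 of its 9 WT sites. Of the 9, 4 were kept. The strongest, from 12505110 to 12505842 inside the gene, held 141 WT and 80 KO reads. It belonged to a group of 5 summits within 9540 bp, in which it alone was kept; the other 4 had 42 to 84 WT reads. The one with 84 reads, from 12503721 to 12504347, was the strongest WT-only site of Lama3, in a range of reads where 73.1% of all WT peaks within 10% of it were kept. The other kept sites had 87 WT and 57 KO reads, 68 and 41, and 53 and 47. The last had a KO to WT ratio of reads of 0.887, with an exact 95% interval from 0.586 to 1.34. A ratio exists only where a KO peak was called, as for 13.4% of all WT peaks from 50 to below 60 reads. Those kept peaks had a median log2 KO to WT ratio above background of -0.57, against -0.98 from 100 to below 120 reads. Ratios of weak kept sites thus leave out the sites without a KO peak.

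Lamb3 encodes the β3 chain of the same laminin. It had 2 WT sites, both inside its span on chromosome 1 (193294353 to 193343878) and both kept. The stronger peak, from 193301076 to 193302400, covers both promoters of the table, including the one shown above, and had 156 WT and 94 KO reads (ratio 0.603, interval 0.461 to 0.783). The second, from 193327232 to 193327699, lay 25200 bp past the nearest start and had 76 and 42 reads.

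Lama5 and Lamc1 encode the α5 and γ1 chains of the other laminin. Lama5 (chromosome 2, 180176373 to 180225904, minus strand) had 6 WT sites. The 2 inside the gene were weak, with 39 and 51 reads, and WT-only. The other 4 lay together within 3494 bp, between 9437 and 12931 bp before the start, and 2 of them were kept. The stronger of the WT-only sites there, from 180235048 to 180235567, had 62 reads. One of the kept sites, from 180236331 to 180236912, had 147 WT and 97 KO reads, with WT and KO summits 1 bp apart. Its log2 KO to WT ratio above background was -0.65, higher than at 86.7% of the strong kept sites defined below. The weaker kept site had 54 and 42 reads, a ratio of 0.778 with an interval from 0.507 to 1.19. It has the limit given for the weak Lama3 site.

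Lamc1 (chromosome 1, 153218922 to 153332786) had 10 WT sites, spread widely, with no more than 3 in any 20 kb. Of these 3 were kept, with 141 WT and 83 KO reads, 81 and 56, and 80 and 51. The strongest, from 153286018 to 153286642, lay inside the gene. The site with 81 reads lay 11779 bp outside the span. The WT-only sites had 40 to 72 reads. They included both sites at the end of the span at 153332786, one inside with 40 reads and one 585 bp outside with 46.

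Col17a1 encodes a transmembrane collagen of the hemidesmosome that helps basal stem cells to stay attached. Its span on chromosome 19 runs from 47646341 to 47692042 on the minus strand. Of its 10 WT sites 6 were kept, and 6 of the 10 lay before the start, between 5277 and 18368 bp away, of which 4 were kept. The strongest, from 47697996 to 47698879, lay 6445 bp before the start, with 148 WT and 87 KO reads and both summits at the same base. Its neighbours at 5277, 7923 and 16054 bp had 103 WT and 63 KO reads, 89 and 41, and 102 and 61. The farthest, from 47710173 to 47710793, had 93 WT reads and no KO peak. It was the strongest WT-only site of all 8 genes, at a strength where 84.8% of WT peaks within 10% of its reads were kept.

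At the Col17a1 start itself, the promoter shown above was covered by a WT peak of 74 reads, from 47691559 to 47692412, and a KO peak of 49, whose summits lay 84 bp apart. The KO peak was 307 bp wide and the WT peak 854 bp, and asking for 50% reciprocal overlap leaves this site WT-only. One site inside the gene, 20827 bp past the start, had 104 WT and 53 KO reads.

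Dst spans 401 kb of chromosome 1 (33907888 to 34308662, plus strand) and encodes plakins of nerve, muscle and epidermis from different starts; the epidermal form, BPAG1e, is the one that ties keratins to the hemidesmosome. All 8 WT sites lay inside the span and 5 were kept. The strongest, from 34158940 to 34160489, had its summit in the internal promoter shown above, with 217 WT and 165 KO reads. The promoter table does not say which form starts there. The other listed start, 34011595, also lies inside the span, and no start is listed where the span begins, at 33907888. That other start had no peak over its promoter and no WT summit closer than 62418 bp.

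The kept Dst sites had a wide range of KO to WT ratios of reads. At the internal start the KO to WT ratio of reads was 0.760 (0.617 to 0.935), while 16.9 kb away, at the peak from 34142942 to 34143738, it was 0.359 (0.251 to 0.507), with 128 WT and 46 KO reads. These intervals do not overlap, but they cover counting error only. The pair was picked from these ratios as the lowest and highest of the Dst sites with at least 100 WT reads. The site 20137 bp before the internal start lay between them with 155 and 86 reads (0.555, 0.421 to 0.727), and the site 99932 bp past it had 99 and 45 reads (0.455, 0.312 to 0.653). The remaining kept site, with 52 and 45 reads, has the limit given for the weak Lama3 site. The 3 WT-only sites had 42, 49 and 62 reads, the strongest being the peak from 34073745 to 34074250. Between the low site and the internal start lay the only KO peak of the 8 genes without a WT peak, from 34148027 to 34148372, with 41 reads and its summit 4901 bp from the nearest WT summit. Such KO-only peaks made up 1.03% of all KO peaks (153 peaks, at most 53 reads).

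Plec encodes plectin, which binds keratin filaments and integrin β4. It had the most sites, 11 in WT and 11 KO peaks, around a span of 60.4 kb on chromosome 15 (76170974 to 76231378). Of the 11 WT sites 8 were kept. The strongest of all 8 genes lay outside the span, 12190 bp beyond its lower-coordinate end, from 76157726 to 76159437, with 265 WT and 214 KO reads. By reads it was number 12 of the whole WT list. The ratio of reads was 0.808 (0.671 to 0.971). The sites on either side, 19191 and 8062 bp from the span, had 104 WT and 61 KO reads and 120 and 69.

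Inside Plec, 8 summits lay within 17451 bp, and 5 of them were kept. The strongest, from 76194685 to 76196964, held 204 reads in WT and 124 in KO. The site from 76192601 to 76193560 had 136 and 63 reads (0.463, 0.338 to 0.629), and the one from 76197899 to 76199878 had 109 and 55. The WT-only sites had 77, 45 and 43 reads. Of the 8 kept Plec sites, 3 overlapped 2 KO peaks each, with WT widths of 2280, 1980 and 1468 bp, while the strongest, 1712 bp wide, overlapped 1. At the other genes no kept site did, and over the whole WT list 2.96% of kept peaks overlapped 2 or more. For the peak of 1980 bp, the WT summit and the summit of the stronger KO peak were 378 bp apart, the largest shift among the 30 kept sites.

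**Figure D3:**
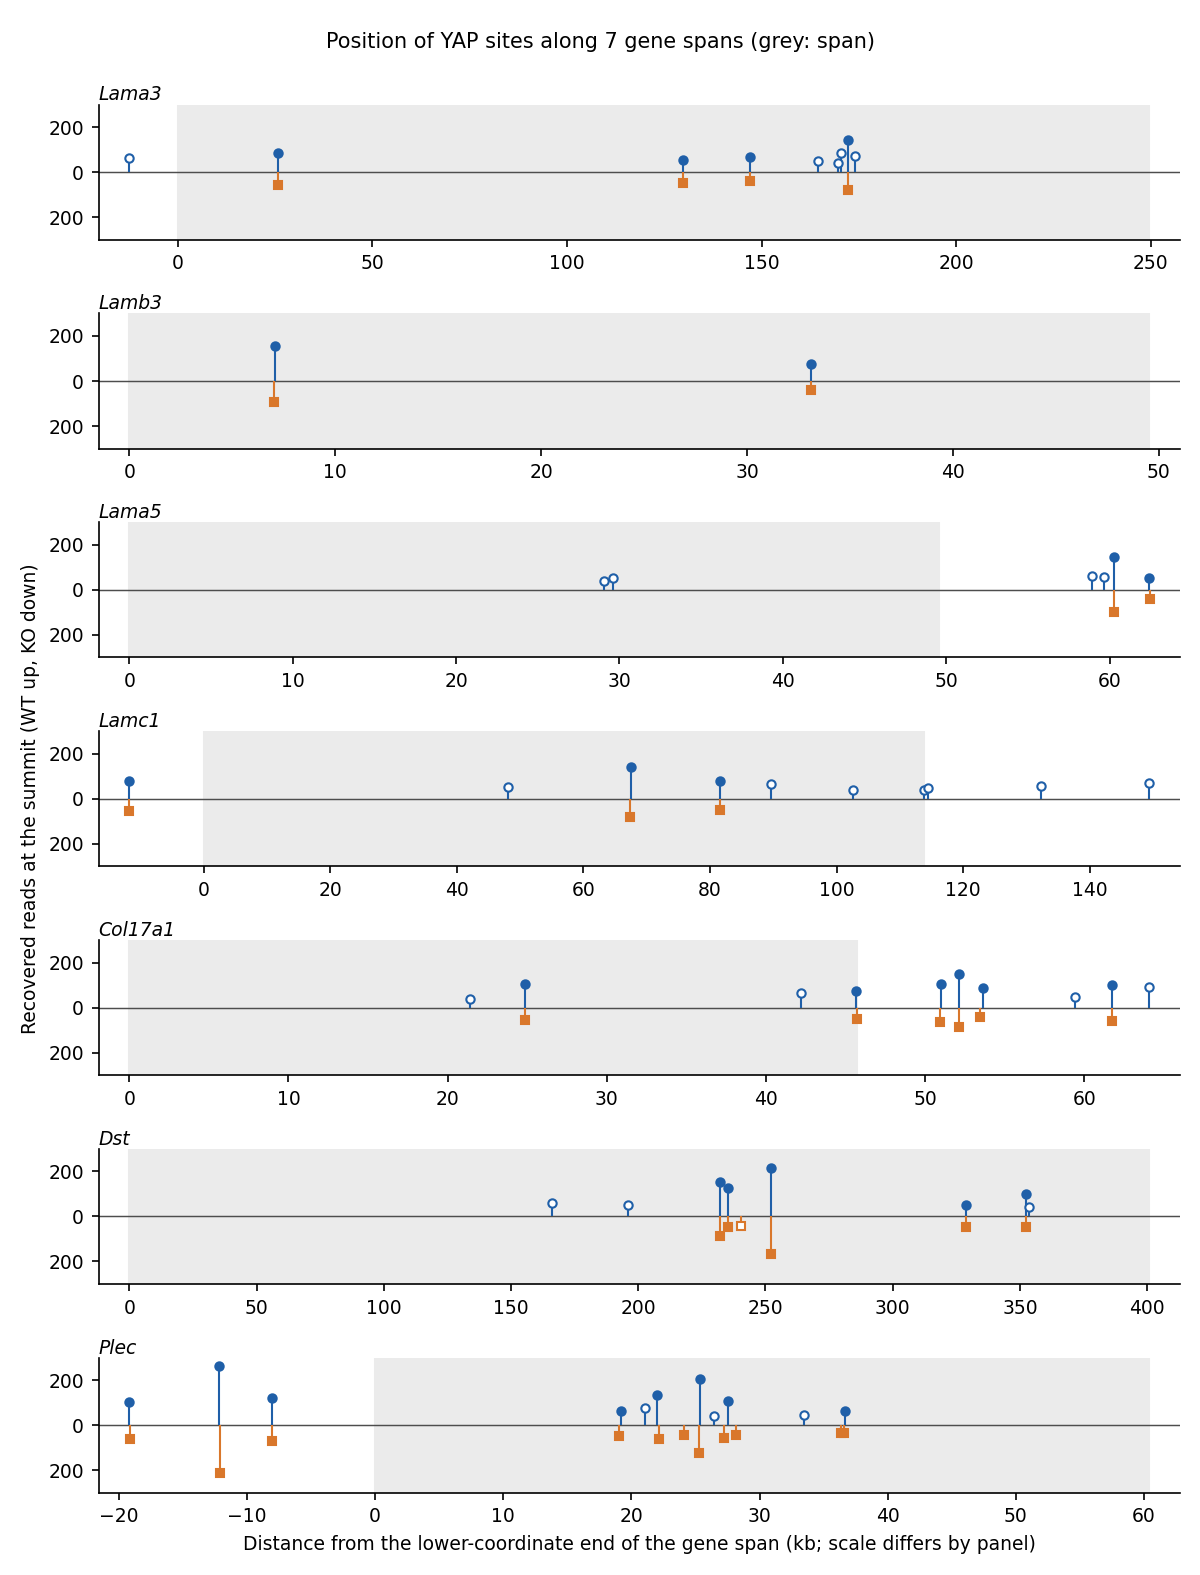
Summit reads (vertical axis, WT upward in blue, KO downward in orange) against distance in kb from the lower-coordinate end of each of 7 gene spans (grey), with open symbols for peaks that overlap none of the other list. The strongest Lama5, Col17a1 and Plec sites lie outside the grey span, and those of Lama3, Lamb3, Lamc1 and Dst inside.

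Col7a1 encodes collagen VII of the anchoring fibrils. No summit of either list was linked to it, as for 46.8% of protein-coding genes in WT. Its span on chromosome 9 is the shortest of the 8, at 31.3 kb, with 5 other protein-coding genes within 50 kb. The nearest WT summit lay 4245 bp from the span inside Uqcrc1, a gene of the respiratory chain, and had 145 WT and 77 KO reads. This site counts for Uqcrc1 by the rule. Elsewhere the limit of 100 kb was never reached, since the farthest linked site, 35535 bp from Lamc1, had 72 WT reads. The nearest sites left out were 2460 bp from Plec, inside Parp10 (77 WT reads, WT-only), and 4587 bp from Col17a1, inside Slk (37, WT-only).

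KO reads were compared with WT reads at the strong kept sites, those with at least 100 WT reads. The comparison rests on the equal background of evenly spread reads, and a difference in pull-down between the 2 ChIP samples was not tested. The 17 strong sites of the 8 genes had a median of 141 WT and 80 KO reads, and KO held fewer reads at 17 of 17, as at 6030 of 6031 strong kept sites in the whole list. Strong sites were picked by WT reads with no such limit on KO reads, which favours lower KO values in advance. The part of this choice in the counts and ratios was not tested. After the background of 9.63 was subtracted on both sides, the log2 ratio of KO to WT had a median of -0.85 (quartiles -0.93 and -0.79). Over all 6031 strong kept sites it was -0.92 (-1.09 and -0.75). With the local background of each list subtracted instead, an alternative added after seeing the data, the medians were -0.93 and -0.92, so the order of the 2 medians depended on this choice.

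Of the 17 sites, 3 stood near the edges of the distribution of all strong kept sites. The ratio was -1.70 at the Dst site of 128 reads, lower than at all but 0.381% of them. It was -0.42 at the Dst internal start, above 98.5% of them, and -0.32 at the Plec site of 265 reads, above 99.6%. The median was -0.71 at the 375 kept sites with at least 200 reads, against -0.92 from 100 reads. Among kept WT peaks within 10% of the same reads, the Dst start was above 95.7% of 369, the Plec site above 95.4% of 65, and the low Dst site above 0.459% of 1962. The other 14 strong sites lay between -1.24 and -0.65. The strong laminin sites lay between -0.90 and -0.65, and those of Col17a1 between -1.12 and -0.81.

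**Figure D4:**
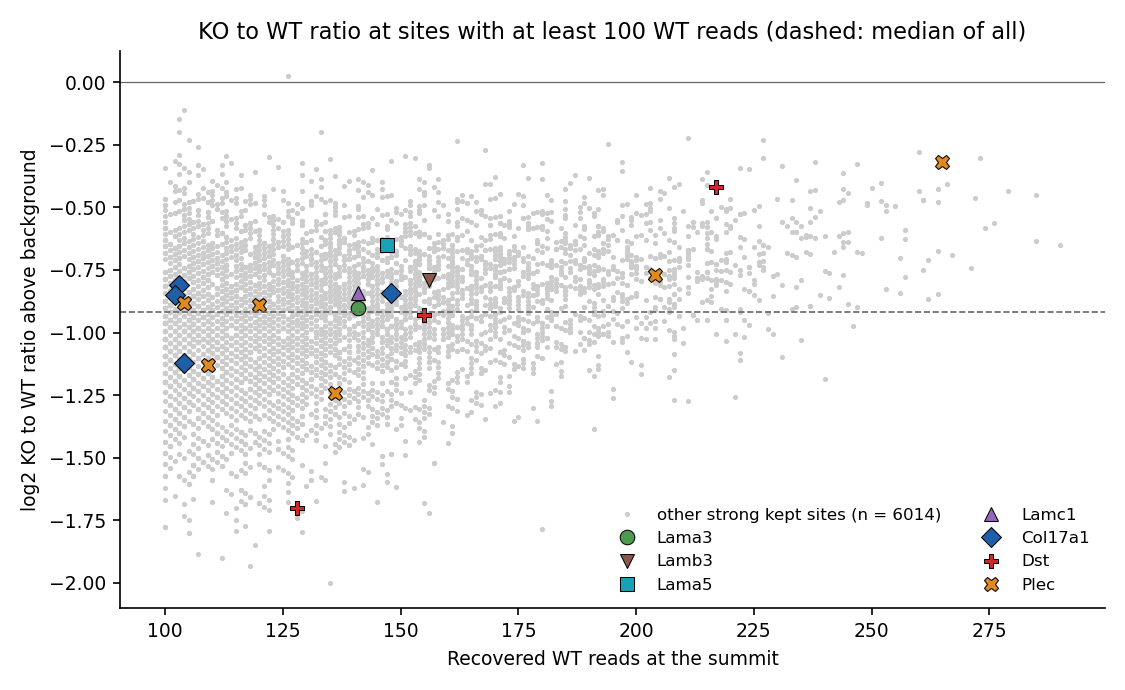
Log2 KO to WT ratio above background (vertical axis) against WT summit reads (horizontal axis) for kept sites with at least 100 WT reads, in grey for 6014 other sites and in colour for the 17 of these genes. Dst has both a site at -1.70 and one at -0.42, and the strongest Plec site, at 265 reads, is at -0.32, near the top of the grey cloud.

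Most sites of these genes lay away from the ends of the spans. Summits within 2 kb of either end of the span made up 3 of 56 (5.36%, 1.12 to 14.9), against 26.8% of all WT peaks measured to their own linked gene. They were the Col17a1 start site and both Lamc1 sites at the end of its span. The listed Lamb3 and Dst starts lie inside the spans, so sites there are not counted by this measure. Of the 26 sites at genes with a listed start, 3 lay within 2 kb of one (11.5%), against 28.8% of all peaks with such a start. The 3 near a listed start were the Dst, Lamb3 and Col17a1 promoter sites, and all 3 were kept. Inside the spans lay 38 of 56 sites (67.9%, against 53.3% of all). The members' spans are longer, with a median of 55.0 kb against 26.3 kb for genes with a linked WT peak. The part of span length in these shares was not tested. Inside sites were kept in 20 of 38 (52.6%, 35.8 to 69.0) and outside sites in 10 of 18 (55.6%, 30.8 to 78.5), intervals that overlap widely.

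Kept peaks were close to each other in position. WT and KO summits differed by a median of 32.5 bp (33.0 bp over all kept WT peaks), and by over 100 bp at 4 of 30 (11.8% of all kept peaks). The 56 WT peaks had a median width of 545 bp and the 34 KO peaks 480 bp, against 516 and 448 bp in the whole lists. No other WT summit lay within 10 kb of 16 of the 56 sites (28.6%, against 35.5% of all), and the most crowded one, in Plec, had 7.

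The wider basement membrane zone was described with 35 other genes, among them the partners of the 8. A WT peak was linked to 32 of the 35 and a kept one to 25, against 53.2% and 30.0% of all genes. Their spans run from 4.12 kb (Cd151) to 636 kb (Lama2), against a median of 17.3 kb for all genes. The part of span length in these counts was not tested. Of the 135 WT sites of these 35 genes 62 were kept (45.9%, 37.3 to 54.7), where 56.3 would be kept from reads alone. At their 27 strong kept sites the median log2 ratio was -0.98. Itgb4, which encodes the β4 integrin that plectin binds, had 3 sites, all kept, the strongest with 227 WT and 145 KO reads. Itga6, for the α6 partner, had 15 sites of which 4 were kept, the strongest with 123 and 61 reads. Cd151, for a tetraspanin of the hemidesmosome, had 1 site with 107 and 58 reads. Krt5 and Krt14, the basal keratins, had 3 of 3 and 2 of 8 sites kept, the strongest with 195 and 100 reads and with 142 and 101. Lama4, Nid2 and Frem1 had no linked site.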

How the data were processed

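YAP ChIP-seq peaks came from 2 deposited lists, 1 per genotype; the 2 inputs were not analysed here. Trimmomatic 0.36, SAMtools 1.5, MACS2 2.1.1 and build mm10 are named, without roles, per the submitters' processing notes. Aligner, control and filters: not given in the sources used here. For each peak, the deposited files give a score (10 times the −log10 q), a fold (a ratio of summit signal to background), the −log10 p and −log10 q, and the summit. The lowest −log10 q lies just above 2. These values are the authors'.

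The fold and p of each peak were solved for the whole ChIP reads and local background at its summit (Poisson model of the caller, match within 0.002 of the −log10 p in 100% of peaks, 0.930% and 0.397% with the scaling 3% off). ChIP was scaled by 0.694 (WT) and 0.842 (KO). The solver was tested on simulated lists of 3999 (WT) and 4000 (KO) peaks made with the same formulas and returned the exact reads of 100.0%. The fragment length behind a background of 9.63 reads, and so the depth in reads, is not given. Gene spans came from RefSeq GRCm38.p6. Python 3.11.15, numpy 2.4.6, pandas 2.3.3 and scipy 1.17.1 were used.

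The 8 genes were all named, with the strongest, the strongest WT-only and the lowest and highest strong kept site of each; the keratinocyte and other marker lists and the 35 other genes came from function, and 1 more gene of that list is not reported here. Genes, lists and the limit of 100 reads were chosen with earlier results of these data known. Alternatives changed the link distance, the overlap rule, the −log10 q limit, the list length, the read limit, the background and the KO pairing. The planned measure near gene starts was given for span ends, since 3 genes had no listed start, and for listed starts where present.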

Additional observations from a re-analysis of the deposited data

How the results depend on the processing

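The kept share of 53.6% moved outside its interval under 1 setting, the WT list reduced by score to the number of KO peaks, where it was 78.1% (77.8% of all peaks so reduced), since that list holds only higher-scoring peaks. The other 26 values recomputed for the main results stayed within the interval or within 1.5 times (for log2 ratios, within 0.1): the kept share lay between 48.2% with 50% reciprocal overlap and 54.5% within 10 kb of the span, the linked WT peaks numbered 38 inside spans only, and 6 or 7 genes had a kept peak. With the same overlap and distance settings the whole list gave 32.1% and 38.0%. Without Plec, an alternative added after seeing the data, the kept share was 48.9% and the median log2 ratio -0.84. Of 42 recomputed numbers of kept sites per gene, 5 changed by over 1.5 times, 3 of them at Lama5 and 1 each at Col17a1 and Plec. Sites too weak to be called in a list have no value in it. No paired analysis was possible because there is 1 list of each genotype.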
